A study of Mus musculus with 12 samples.

Results

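Transcript levels of 8 genes around the glucocorticoid receptor were followed in 12 RNA sequencing libraries from mouse fetal liver (FL). The genes were *Nr3c1*, *Hsd11b1*, *Hsd11b2*, *Tsc22d3*, *Fkbp5*, *Per1*, *Zfp36l2*, and *Ppara*, taken by name from the 38127 genes counted. Cells were sorted from C57BL/6 FL after exclusion of Ter119+ and CD45+ cells, with 3 libraries per population, and no treatment or engineered allele entered any of them. P2 cells carried Kit and CD24 and lacked CD54 and CD31 (embryonic day 14.5, E14.5), CD54+CD31- cells are the fraction that the study names CD324+ and that contains hepatoblasts (E14.5), CD31+ cells carried CD54 and CD31 and contain endothelial cells (E14.5), and a further CD54+CD31- fraction was sorted at E18.5. The 3 comparisons among E14.5 cells asked how erythroid progenitors differ from the hepatoblast and endothelial fractions, and the fourth compared the 2 ages of CD54+CD31- cells. The study states independent litters for E14.5, and where litters are not stated, as for E18.5, p-values measure the spread between these samples, which may be technical.

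The glucocorticoid receptor is a transcription factor held by chaperones in the cytoplasm until it binds corticosterone, the main glucocorticoid of the mouse. In erythroid progenitors it is known to act with Kit and erythropoietin signals to prolong self-renewal and delay maturation. *Zfp36l2*, whose protein binds AU-rich messages and promotes their decay, and *Ppara*, a nuclear receptor for fatty acids, are known as partners of this response in burst-forming erythroid progenitors. The study assigns P2 cells to the more mature erythroid colony-forming stage (CFU-E). *Tsc22d3*, *Fkbp5*, and *Per1* are widely used as readouts of receptor activity, and the 2 *Hsd11b* enzymes set how much active hormone a cell holds.

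Total counts ranged from 40714017 to 64368883 per library, so that the number of libraries, and for the rarest transcripts the counts themselves, limited precision. Levels are CPM (counts scaled to the size of the library) on one TMM scale over the 12 libraries. Fold changes and their p-values, adjusted over all genes tested, come from edgeR fits of 9 or 6 libraries, so a fold can differ from the ratio of the levels. With age *Zfp36l2* was 1.35-fold lower by its mean levels and 1.18-fold lower by the fit. *Fkbp5* was 1.29-fold lower by its mean levels and 1.14-fold lower by the fit. For these genes the gap is of the size of the change with age. Defining markers matched the sorted phenotypes at E14.5. *Icam1*, which encodes CD54, lay between 49.7 and 53.6 CPM in CD54+CD31- cells and between 97.2 and 148 CPM in CD31+ cells. In P2 cells *Icam1* was at most 4.06 CPM. *Cd24a*, which encodes CD24, lay between 386 and 475 CPM in P2 cells, against at most 184 CPM in the other E14.5 libraries. *Kit* lay between 299 and 359 CPM in P2 cells, *Cdh1*, which encodes CD324, between 439 and 491 CPM in CD54+CD31- cells, and *Pecam1*, which encodes CD31, between 542 and 645 CPM in CD31+ cells. CD31+ libraries also held markers of other blood cells: macrophage markers summed to between 1350 and 1599 CPM there and to at most 242 CPM in any other library, megakaryocyte markers to between 268 and 481 CPM against at most 77.3, and granulocyte markers to between 141 and 619 CPM against at most 121. These sums do not show which cells carried the transcripts. The part of macrophages, megakaryocytes, or granulocytes in any result with CD31+ cells was not tested. The E18.5 libraries stood apart from a liver fraction. The 7 lung epithelium markers, among them surfactant genes, summed to between 8793 and 19959 CPM there and to at most 4.51 CPM in any E14.5 library, with all 7 detected at E18.5. Markers of stellate and mesenchymal cells summed to between 3153 and 3487 CPM at E18.5 and to at most 185 CPM at E14.5. Hepatoblast markers summed to 5287, 39214, and 50879 CPM in E18.5 libraries 1, 2, and 3 and to between 71998 and 82657 CPM in E14.5 CD54+CD31- cells. E18.5 library 1 was thus the lowest in hepatoblast and the highest in lung markers, and the part of these cells in any result with age was not tested. In these bulk samples, fewer cells of a type and less RNA per cell cannot be told apart.

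P2 cells combined higher *Zfp36l2* transcript with lower *Ppara*, *Fkbp5*, and *Tsc22d3* transcript than CD54+CD31- cells. *Nr3c1* was also higher, by a small margin whose call depended on the setting. The same 5 genes differed in the same directions from CD31+ cells. Of the 8 genes, 7 passed the low count filter in each fit. Against CD54+CD31- cells 5 of the 7 were called (2 higher, 3 lower), beside 70% of all 15461 genes tested. Against CD31+ cells 5 of the 7 were called (2 higher, 3 lower), beside 73.7% of all genes. CD31+ and CD54+CD31- cells differed in 4 of the 7 (2 higher, 2 lower in CD31+ cells), beside 65.6%. From E14.5 to E18.5, 4 of the 7 were called (3 higher, 1 lower), beside 69.4% of 15863 genes. Over all genes, 33.8% were called higher and 36.1% lower in the first comparison, 34.3% and 39.4% in the second, 31.7% and 34% in the third, and 35.9% and 33.5% in the fourth, and counts for the gene lists below are to be read beside these shares. In each of the 4 comparisons 5 of the 7 had libraries that did not overlap between the groups, beside 75.3%, 77.1%, 69.5%, and 77.8% of all genes tested. These shares are near those of all genes, so the sizes, directions, and levels of the single genes carry the information. The 3 comparisons at E14.5 share libraries with each other, and the E14.5 CD54+CD31- libraries also serve the comparison with E18.5.

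**Figure D1:**
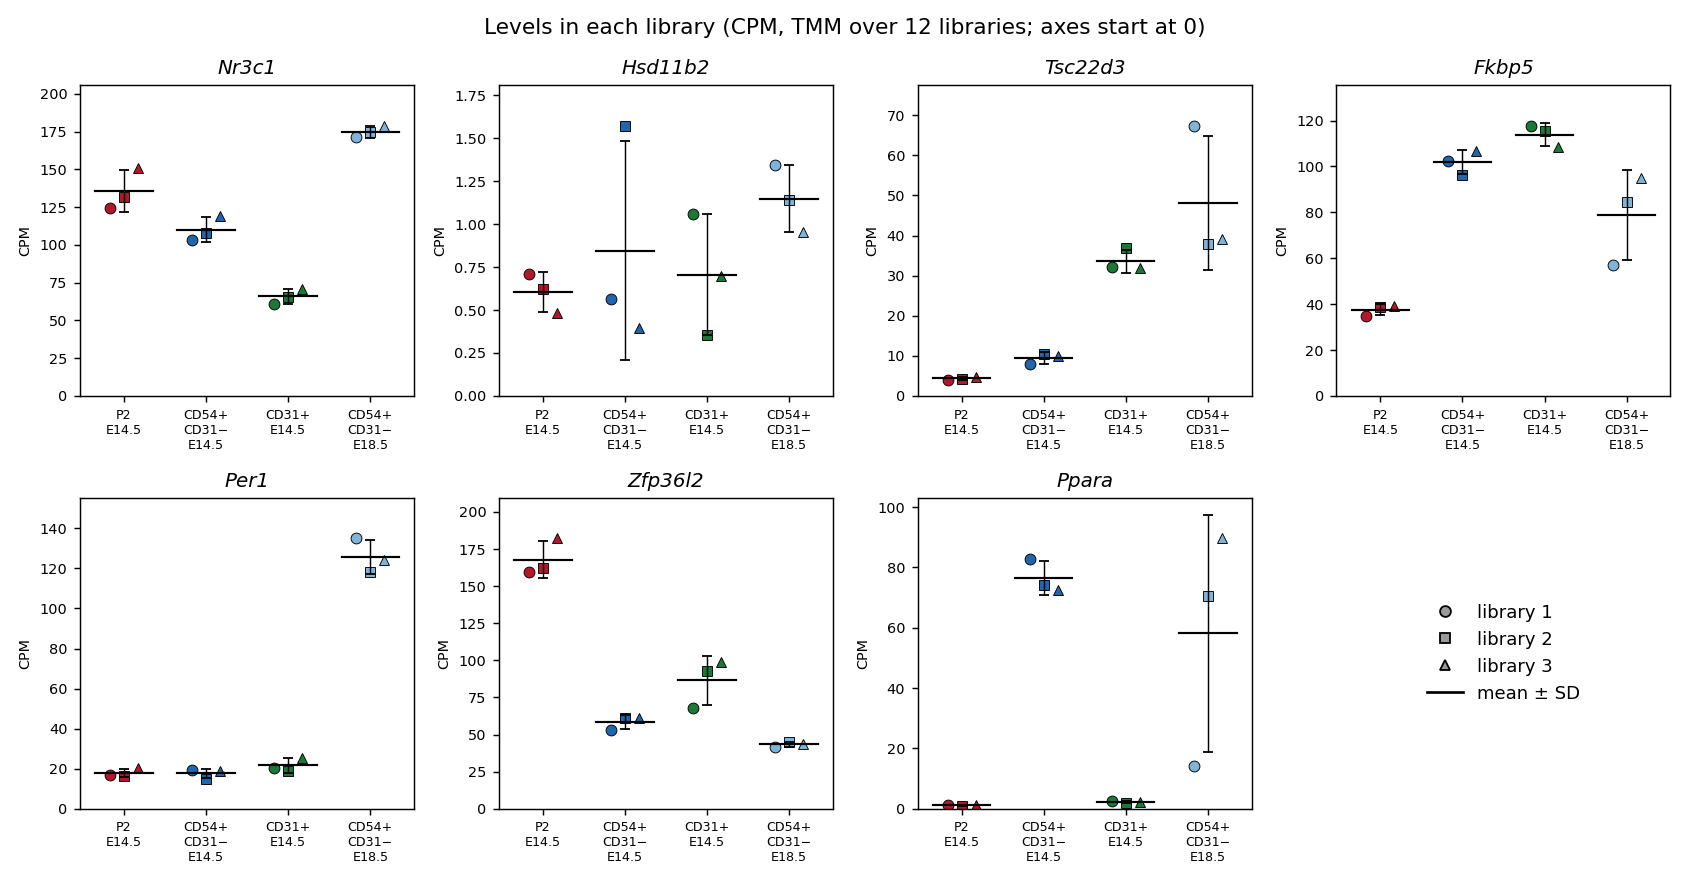
Levels of 7 of the 8 genes in each library (CPM, TMM scale over 12 libraries, each axis from 0) for the 4 populations, with the mean and SD of 3 libraries; *Hsd11b1*, at 0 counts in all 12 libraries, is not drawn. *Zfp36l2* is highest in the 3 P2 libraries, *Ppara* is near 0 in P2 and CD31+ cells, and *Per1* separates the 3 E18.5 libraries from the 9 others.

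**Figure D2:**
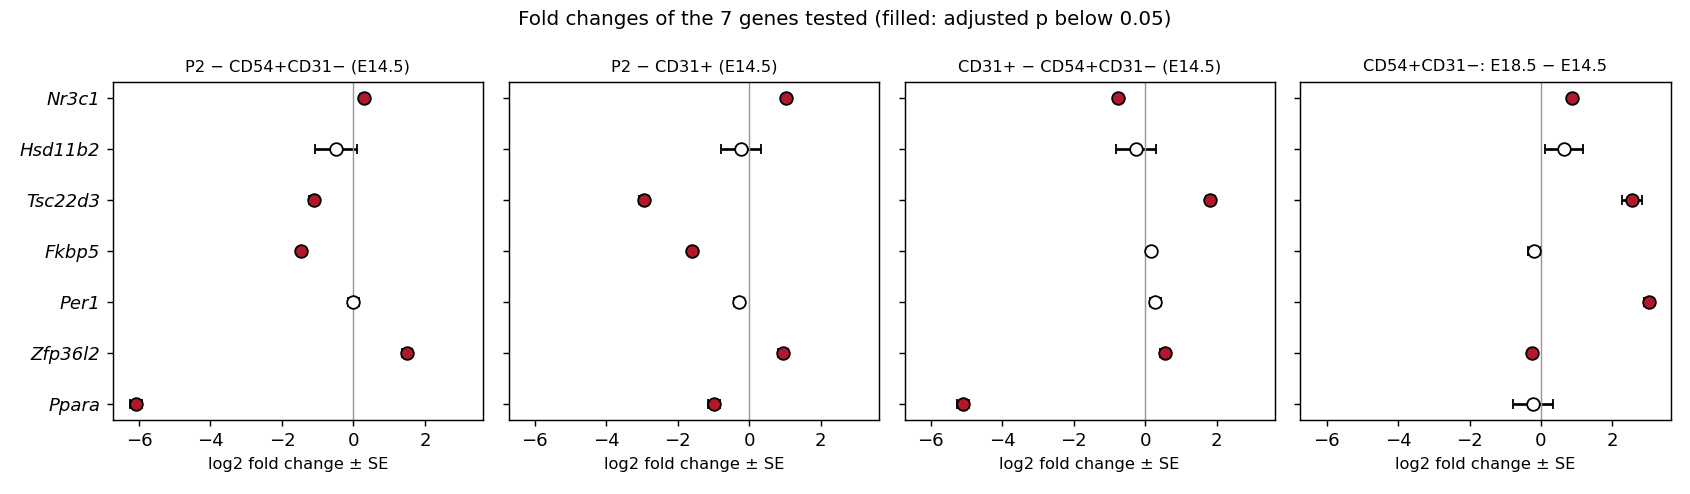
Log2 fold changes with standard errors of the 7 genes tested in the 4 comparisons (positive values are higher in the first population named); filled points passed an adjusted p of 0.05. *Ppara* has the largest differences at E14.5, and *Per1* and *Tsc22d3* the largest with age.

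*Nr3c1* (ENSMUSG00000024431, GRCm38 chr18:39410545-39519421, minus strand), which encodes the glucocorticoid receptor, was transcribed in every population. Its level was 124, 132, and 151 CPM in the 3 P2 libraries and 103, 108, and 119 CPM in the E14.5 CD54+CD31- libraries. It was 60.9, 65.5, and 71.1 CPM in CD31+ cells and 171, 175, and 179 CPM in CD54+CD31- cells at E18.5. The 4 ranges did not overlap, in the order E18.5, P2, E14.5 CD54+CD31-, and CD31+. P2 cells exceeded CD31+ cells by 1.03 ± 0.10 on the log2 scale (SE, edgeR adjusted p = 6.36e-06), a 2.04-fold difference, and CD31+ cells were 1.68-fold below E14.5 CD54+CD31- cells (log2 -0.75 ± 0.10, SE, edgeR adjusted p = 9.09e-05). The receptor transcript was 1.81-fold higher at E18.5 than at E14.5 (log2 0.86 ± 0.09, SE, edgeR adjusted p = 0.000179). Lung and mesenchymal markers were also higher in the E18.5 libraries, and their part in this was not tested. The margin of P2 over CD54+CD31- cells at E14.5 was small, 1.22-fold (log2 0.29 ± 0.10, SE, edgeR adjusted p = 0.0273), and its call depended on the setting. It was kept with DESeq2 size factors (0.29), with DESeq2 (0.29), and with genes above 1% of a library left out (0.29), and was lost with the authors' factors, where the difference was 0.02 on the log2 scale (edgeR adjusted p = 0.852). It was also lost with no count filter (0.28, edgeR adjusted p = 0.0516) and with a filter of at least 10 counts in every library (0.19, edgeR adjusted p = 0.0964). Without P2 library 3 it was 0.21 (edgeR adjusted p = 0.117), and without CD54+CD31- library 1 or 2 it was 0.26 in each case (edgeR adjusted p = 0.0792 and 0.0927), not called with fewer libraries. The authors' factors moved the median of all genes by -0.26 in this comparison, by -0.37 for P2 against CD31+ cells, by 0.11 for CD31+ against CD54+CD31- cells, and by 0.23 for E18.5 against E14.5, all on the log2 scale, and changed the share of called genes that were higher in P2 cells from 48.3% to 38.2% and from 46.6% to 33.9%.

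The mineralocorticoid receptor *Nr3c2*, a related receptor that also binds corticosterone, had another order. It was at 1.49, 1.83, and 2.00 CPM in P2 cells, between 33.8 and 46.7 CPM in E14.5 CD54+CD31- cells, between 4.90 and 9.02 CPM in CD31+ cells, and between 8.23 and 19.9 CPM at E18.5. P2 cells were thus 23.5-fold below E14.5 CD54+CD31- cells (log2 -4.55 ± 0.26, SE, edgeR adjusted p = 9.50e-08), and its direction held with the authors' factors. Of 17 partners of the receptor (chaperones, coactivators, corepressors, and *Nr3c2*), 11 were higher and 4 lower in P2 than in CD54+CD31- cells, with a median log2 difference of 0.47 beside -0.01 for all genes. Against CD31+ cells the counts were also 11 higher and 5 lower, with a median of 0.43 beside -0.13. With the authors' factors, which lower the values of P2 cells, they were 8 higher and 5 lower, and 8 higher and 6 lower. *Hsp90aa1*, the chaperone that keeps the receptor able to bind hormone, averaged 1609 CPM in P2 cells, 506 in E14.5 CD54+CD31- cells, 313 in CD31+ cells, and 122 at E18.5. *Fkbp4*, whose protein helps the receptor bind hormone and reach the nucleus, lay between 715 and 792 CPM in P2 cells and between 668 and 696 CPM in CD54+CD31- cells, against 136 to 178 CPM in CD31+ cells and 142 to 155 CPM at E18.5. P2 and CD31+ cells differed 4.60-fold in *Fkbp4* (edgeR adjusted p = 8.14e-08), while its difference between P2 and CD54+CD31- cells was not called (log2 0.12 ± 0.11, SE, edgeR adjusted p = 0.347, and -0.14 with the authors' factors). Coregulators divided: *Med1* was 2.70-fold higher and *Nrip1* 2.30-fold higher in P2 than in CD54+CD31- cells, and *Ncoa1* 3.79-fold and *Ncoa3* 2.65-fold lower. With age the 17 partners split into 7 higher and 8 lower (median log2 -0.21 beside 0.03 for all genes). The chaperones *Fkbp4*, *Stip1*, and *Hsp90aa1* fell 4.01-, 3.85-, and 3.63-fold, and the coactivator *Ncoa1* rose 2.38-fold.

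The enzymes that set the active hormone were the least readable of the 8 genes. *Hsd11b2* (ENSMUSG00000031891, chr8:105518755-105523988, plus strand), which inactivates corticosterone, had between 16 and 88 counts per library. These were 0.71, 0.62, and 0.48 CPM in P2 cells, 0.57, 1.57, and 0.39 CPM in E14.5 CD54+CD31- cells, 1.06, 0.36, and 0.70 CPM in CD31+ cells, and 1.35, 1.14, and 0.96 CPM at E18.5. All neighbouring populations in its order overlapped, and none of the 4 comparisons was called (log2 differences between -0.48 and 0.64 with standard errors between 0.53 and 0.58). Without E14.5 CD54+CD31- library 2, its highest library, the difference with age was 1.42 on the log2 scale (edgeR adjusted p = 0.0217).

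*Hsd11b1* (ENSMUSG00000016194, chr1:193221634-193264075, minus strand), which regenerates corticosterone from its inactive form and is a characteristic liver enzyme, had 0 counts in all 12 libraries. This value could not be read as absence. The gene lies wholly inside the span of *Lamb3* on the opposite strand, with no exon in common. *G0s2*, also inside *Lamb3*, had 0 counts as well. Across the annotation, 623 of 636 protein-coding genes nested in an opposite-strand gene (98.0%) and 338 of 342 nested in a same-strand gene (98.8%) were at 0 in all 12 libraries, against 2187 of 13886 genes that overlap no other gene (15.7%). Of protein-coding genes nested on the opposite strand only, with no exon overlap with any gene, 368 of 372 were at 0 (98.9%). *Hsd11b1* was therefore not measurable by this counting. *H6pd*, whose product supplies the cofactor for this enzyme inside the endoplasmic reticulum, was countable. It lay between 41.5 and 47.3 CPM in P2 cells, between 48.2 and 57.8 in CD31+ cells, between 213 and 223 in E14.5 CD54+CD31- cells, and at 140, 220, and 282 at E18.5. P2 cells were 5.04-fold below CD54+CD31- cells (log2 -2.33 ± 0.10, SE, edgeR adjusted p = 8.59e-09).

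Among 16 genes of glucocorticoid synthesis, activation, and transport, 11 passed the filter, of which 2 were higher and 8 lower in P2 than in CD54+CD31- cells (median log2 -4.22 beside -0.01 for all genes). *Serpina6*, which encodes the plasma carrier of corticosterone made by hepatocytes, averaged 52.3 CPM in P2 cells, 69.7 in CD31+ cells, 6352 in E14.5 CD54+CD31- cells, and 46.8 at E18.5. Hepatoblast markers summed to between 700 and 708 CPM in P2 cells and moved with this list, and their part in it was not tested. The 2 genes higher in P2 cells were *Star*, which brings cholesterol into mitochondria (2.94 against 1.24 CPM), and *Mc2r*, the receptor for adrenocorticotropin. *Star* averaged 3.05 CPM in CD31+ cells. From these data the study already lists *Mc2r* among the genes higher in P2 than in CD324+ cells. *Mc2r* was read at 8.38, 9.32, and 9.36 CPM in P2 cells (365 to 486 counts) and at no more than 0.86 CPM in the other 9 libraries. P2 cells exceeded CD54+CD31- cells by 4.22 ± 0.33 (SE, edgeR adjusted p = 9.92e-07) and CD31+ cells by 3.64 ± 0.30 (SE, edgeR adjusted p = 1.80e-06) on the log2 scale. Against CD31+ cells *Mc2r* was the 1 gene of this list called higher in P2 cells, and 7 were lower (median -0.62 beside -0.13). CD31+ cells had 3 genes higher and 5 lower than CD54+CD31- cells (median -0.97 beside -0.03), and E18.5 cells had 2 higher and 4 lower of 10 tested (median 0.15 beside 0.03). Without E18.5 library 1, a setting chosen after the data were examined, the last counts were 6 higher and 4 lower.

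Of the 3 target genes of the receptor, *Tsc22d3* and *Fkbp5* were lowest in P2 cells, and *Per1* was low in all 3 populations at E14.5. *Tsc22d3* (ENSMUSG00000031431, chrX:140539528-140600659, minus strand) encodes GILZ, a leucine zipper protein induced by glucocorticoids that restrains inflammatory signalling. Its level was 4.09, 4.35, and 4.78 CPM in P2 cells and 7.87, 10.6, and 9.87 CPM in E14.5 CD54+CD31- cells. It was 32.0, 36.9, and 31.8 CPM in CD31+ cells and 67.5, 37.9, and 39.2 CPM at E18.5. No 2 populations that neighbour each other in this order overlapped. P2 cells were 2.17-fold below CD54+CD31- cells (log2 -1.12 ± 0.14, SE, edgeR adjusted p = 3.09e-05) and 7.68-fold below CD31+ cells (log2 -2.94 ± 0.14, SE, edgeR adjusted p = 6.27e-08). CD31+ cells exceeded CD54+CD31- cells 3.54-fold (log2 1.82 ± 0.13, SE, edgeR adjusted p = 7.82e-07), with the macrophage, megakaryocyte, and granulocyte markers also higher there. With age *Tsc22d3* rose 5.84-fold (log2 2.55 ± 0.27, SE, edgeR adjusted p = 0.000222), and its highest library was E18.5 library 1, which had the most lung and the least hepatoblast marker signal. Leaving out each library in turn kept this difference between 2.20 and 2.70 on the log2 scale.

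*Fkbp5* (ENSMUSG00000024222, chr17:28399094-28517527, minus strand) encodes a co-chaperone that the receptor induces and that lowers the receptor's affinity for hormone. It was read at 34.9, 38.8, and 39.3 CPM in P2 cells, at 102, 96.4, and 107 CPM in E14.5 CD54+CD31- cells, and at 118, 115, and 108 CPM in CD31+ cells. At E18.5 it was read at 56.9, 84.5, and 94.9 CPM, with library 1 again apart. P2 cells were 2.74-fold below CD54+CD31- cells (log2 -1.45 ± 0.08, SE, edgeR adjusted p = 1.21e-07) and 3.05-fold below CD31+ cells (log2 -1.61 ± 0.09, SE, edgeR adjusted p = 1.07e-07). CD31+ and CD54+CD31- cells did not differ by the test (log2 0.15 ± 0.08, SE, edgeR adjusted p = 0.128), although their libraries did not overlap, and the difference was called with the authors' factors (0.26) and with the stricter count filter (0.20). The difference with age was -0.19 ± 0.18 (SE, edgeR adjusted p = 0.375), although the libraries of the 2 ages did not overlap. It was called with all 12 libraries in one fit (-0.37).

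*Per1* (ENSMUSG00000020893, chr11:69095217-69109960, plus strand), a repressor of the circadian clock that glucocorticoids also induce, was low in each population at E14.5 and high at E18.5. It was read at 16.9, 16.4, and 20.3 CPM in P2 cells, at 19.1, 15.0, and 18.9 CPM in CD54+CD31- cells, and at 20.5, 18.7, and 25.5 CPM in CD31+ cells. At E18.5 the 3 libraries had 135, 118, and 124 CPM. The 3 populations at E14.5 overlapped, and E18.5 stood above all of them. P2 cells differed from CD54+CD31- cells by -0.01 ± 0.15 on the log2 scale (SE, edgeR adjusted p = 0.965). CD31+ cells exceeded CD54+CD31- cells by 0.28 ± 0.15 (SE, edgeR adjusted p = 0.131), a difference that was called when libraries were paired by replicate number (0.27, edgeR adjusted p = 0.0478). With age *Per1* rose 8.07-fold (log2 3.01 ± 0.14, SE, edgeR adjusted p = 1.69e-05), the largest change with age among the 7 genes tested, and it kept values between 2.89 and 3.06 with each library left out in turn. The E18.5 libraries also carried the lung and mesenchymal markers, whose part in the rise was not tested.

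Windows of 300 bases, 1 per gene, around start sites show what letters lie beside these targets. They are given for *Per1* and *Tsc22d3*, which both rose with age, and for *Fkbp5*, which did not pass the test with age. *Per1* has 2 such windows and *Tsc22d3* 3, and those shown were picked for the E-box and for AGAACA, which the others lack; the second window of *Per1* holds TGACG at -132, another of *Tsc22d3* holds it at -224, and the third of *Tsc22d3* holds none of the motifs searched. The windows run from 250 bases before to 50 after a RefSeq start site (build GRCm38.p6), 5′ to 3′ on the gene's strand, in lower case. Capitals mark an E-box (CACGTG) and the cAMP response core TGACG in *Per1* (chr11:69098699-69098998, plus strand, within the annotated gene), an E-box in *Fkbp5* (chr17:28486100-28486399, minus strand, within the annotated gene), and AGAACA, which is 1 arm of the glucocorticoid response element, read on the other strand, in *Tsc22d3* (chrX:140600473-140600772, minus strand, across the 5′ end of the gene).
Per1: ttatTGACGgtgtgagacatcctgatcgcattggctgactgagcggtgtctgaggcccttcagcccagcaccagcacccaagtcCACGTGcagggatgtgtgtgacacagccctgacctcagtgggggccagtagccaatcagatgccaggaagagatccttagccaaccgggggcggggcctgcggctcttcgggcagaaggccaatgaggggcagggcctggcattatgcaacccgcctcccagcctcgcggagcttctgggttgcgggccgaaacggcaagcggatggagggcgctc
Fkbp5: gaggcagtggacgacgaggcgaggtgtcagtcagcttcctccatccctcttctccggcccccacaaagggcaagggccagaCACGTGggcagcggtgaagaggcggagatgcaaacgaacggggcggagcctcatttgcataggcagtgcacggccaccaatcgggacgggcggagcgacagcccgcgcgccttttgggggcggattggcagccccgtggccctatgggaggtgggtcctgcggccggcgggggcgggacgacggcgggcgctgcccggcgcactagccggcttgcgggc
Tsc22d3: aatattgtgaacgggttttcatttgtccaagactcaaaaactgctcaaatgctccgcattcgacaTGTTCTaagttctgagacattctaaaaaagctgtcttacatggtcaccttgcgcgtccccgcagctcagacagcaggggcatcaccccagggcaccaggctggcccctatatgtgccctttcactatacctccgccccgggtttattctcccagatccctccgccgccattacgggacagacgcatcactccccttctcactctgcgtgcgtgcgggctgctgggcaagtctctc

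Relative to the start site, the E-box begins at -166 in *Per1* and at -169 in *Fkbp5*, the TGACG of *Per1* at -246, and the AGAACA of *Tsc22d3* at -185. Both strands were searched. Of 32851 windows of this kind in the mouse, 7.15% held CACGTG, 20.8% TGACG, 19.0% AGAACA, and 0.475% the full glucocorticoid response element (GNACA and TGTNC with 3 bases between them), which was in none of the 8 windows of 5 of the genes (*Hsd11b1*, *Per1*, *Ppara*, *Fkbp5*, and *Tsc22d3*). AGAACA and TGACG are thus common in such windows, and windows of this length leave out distant elements.

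Other genes known to be induced by glucocorticoids were taken as a list of 24, without the 3 targets above. It shares *Per2* with the clock list and *Pdk4* and *Angptl4* with the list of PPARα targets. In P2 cells 3 were higher and 17 lower than in CD54+CD31- cells among 23 tested (median log2 -2.50 beside -0.01 for all genes, of which 33.8% were called higher and 36.1% lower). The 3 higher were *Zbtb16*, *Klf9*, and *Lpin1*. *Zbtb16*, a zinc finger transcriptional repressor, averaged 10.2 against 0.98 CPM (10.3-fold), and 9.44 CPM in CD31+ cells. *Klf9*, a Krüppel-like factor, averaged 24.5 against 3.23 CPM (7.49-fold). *Lpin1*, a phosphatidate phosphatase, averaged 79.2 against 61.8 CPM (1.26-fold). Among the 17 lower were the hepatic genes *Igfbp1*, an insulin-like growth factor binding protein (2.72 against 339 CPM), *Tat*, tyrosine aminotransferase (0.01 against 1.95 CPM), and *Lcn2*, lipocalin (0.06 against 10.2 CPM). The hepatoblast marker sum moved with these genes as well. Against CD31+ cells 6 were higher and 13 lower (median -1.40 beside -0.13, with 34.3% of all genes higher and 39.4% lower). *Klf9* was again higher, 9.03-fold, with *Lpin1* (5.56-fold) and *Angptl4* (5.44-fold), while *Sgk1*, a serum- and glucocorticoid-regulated kinase (5.06 against 183 CPM), *Pdk4* (0.47 against 19.1 CPM), and *Anxa1* (0.35 against 19.2 CPM) were lower. CD31+ cells had 9 higher and 13 lower than CD54+CD31- cells (median -1.86 beside -0.03, with 31.7% of all genes higher and 34% lower), with *Dusp1*, a phosphatase of MAP kinases, 15.4-fold and *Sgk1* 10.7-fold higher. The blood cell markers of the CD31+ libraries moved with these genes.

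Between the E14.5 and E18.5 CD54+CD31- fractions the list moved upward. The lung and mesenchymal markers were also higher at E18.5, and their part in this was not tested. Of 24 genes 16 rose and 3 fell in CD54+CD31- cells (median log2 1.72 beside 0.03 for all genes, of which 35.9% were called higher and 33.5% lower), and 17 rose and 4 fell without E18.5 library 1. *Zbtb16* went from 0.98 ± 0.44 to 119 ± 6.85 CPM (SD, n = 3), *Anxa1* from 2.84 ± 2.86 to 160 ± 43.3 CPM (SD, n = 3), and *G6pc*, the glucose-6-phosphatase of liver, from 0.03 ± 0.03 to 20.7 ± 16.7 CPM (SD, n = 3). The 3 that fell were the metallothioneins *Mt1* (6.57-fold) and *Mt2* (37.3 to 3.66 CPM) and the cell cycle inhibitor *Cdkn1c* (1.93-fold). *Tsc22d3* and *Per1* thus rose alongside most of the list, whereas *Fkbp5* did not pass the test.

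**Figure D3:**
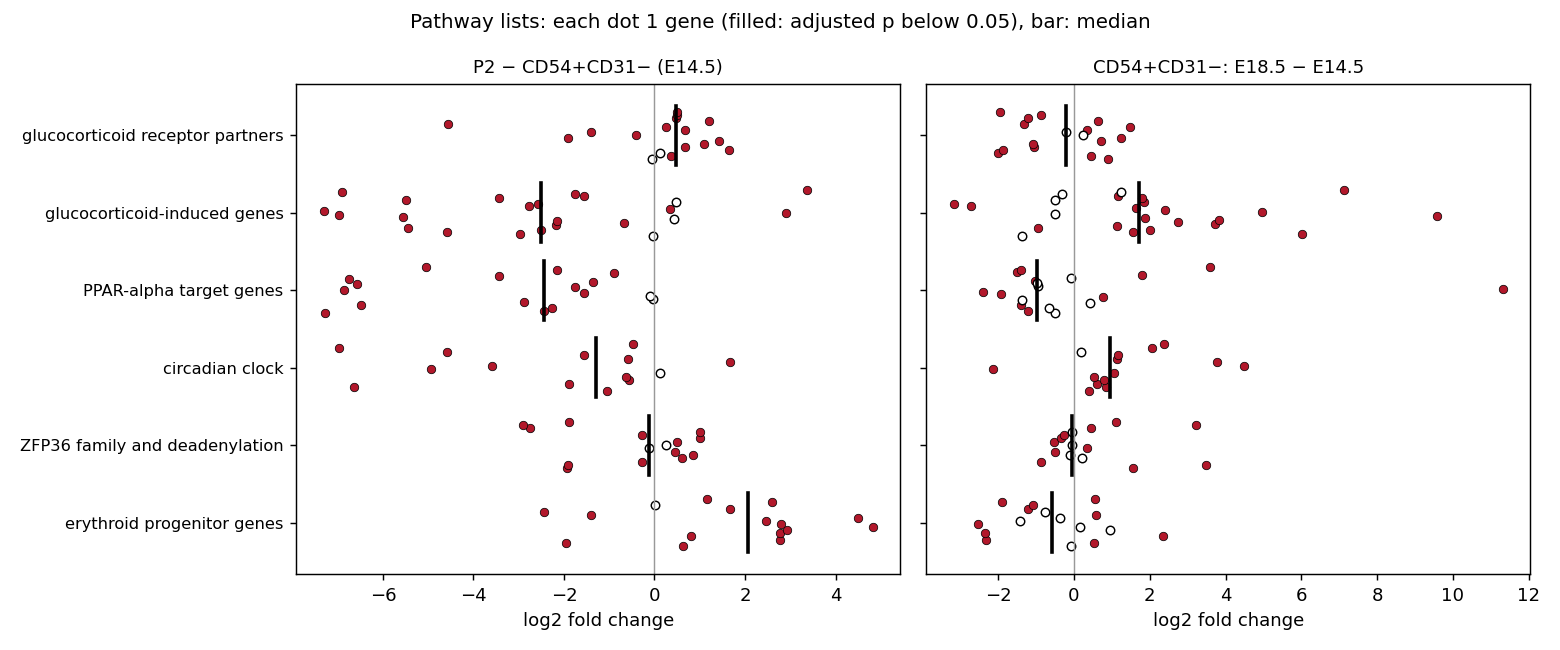
Log2 fold changes of the genes of 6 lists in P2 against CD54+CD31- cells at E14.5 (left) and in CD54+CD31- cells at E18.5 against E14.5 (right), 1 dot per gene, filled where the adjusted p was below 0.05, with the median as a bar. Glucocorticoid-induced genes lie mostly to the left in P2 cells and mostly to the right with age, and PPARα targets lie at or below 0 in P2 cells.

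The circadian clock list gives the company of *Per1*. Of 16 other clock genes 14 were tested, since *Per3* and *Ciart* are nested in other genes and had 0 counts throughout. With age 12 of the 14 rose and 1 fell (median log2 0.95 beside 0.03), and the counts were the same without E18.5 library 1. *Npas2*, a partner of BMAL1, rose 22.5-fold, *Nr1d1*, a clock repressor, rose 13.6-fold, and *Tef* rose 5.22-fold, while *Hlf* fell 4.37-fold. In P2 cells 1 of the 14 was higher and 12 were lower than in CD54+CD31- cells (median -1.30). The 1 higher was *Nr1d1* (3.39 against 1.05 CPM), and among the lower were *Bhlhe40* (0.58 against 58.1 CPM) and *Hlf* (2.15 against 64.9 CPM). Against CD31+ cells P2 cells had 5 clock genes higher and 8 lower (median -0.55 beside -0.13), and 2 higher and 8 lower with the authors' factors. CD31+ cells had 2 higher and 8 lower than CD54+CD31- cells (median -1.12 beside -0.03). The E18.5 libraries also carried the lung and mesenchymal markers, whose part in the clock genes was not tested. The hour of the day at which tissues were taken is not given in the labels, and its part was not tested.

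*Zfp36l2* (ENSMUSG00000045817, chr17:84183931-84187947, minus strand) was highest in P2 cells. Its level was 160, 162, and 182 CPM in P2 cells and 53.1, 61.4, and 60.9 CPM in E14.5 CD54+CD31- cells. It was 67.7, 92.6, and 99.0 CPM in CD31+ cells and 41.5, 44.9, and 43.8 CPM at E18.5. The 4 ranges did not overlap. P2 cells exceeded CD54+CD31- cells 2.84-fold (log2 1.504 ± 0.14, SE, edgeR adjusted p = 3.81e-06) and CD31+ cells 1.93-fold (log2 0.95 ± 0.14, SE, edgeR adjusted p = 0.000105), and both differences kept their call with the authors' factors, at 1.24 and 0.58. CD31+ cells were 1.47-fold above CD54+CD31- cells (log2 0.56 ± 0.14, SE, edgeR adjusted p = 0.00456). The fall with age was small (log2 -0.24 ± 0.08, SE, edgeR adjusted p = 0.0325), was -0.01 with the authors' factors, and was not called in 11 of 14 alternatives, among them those without E14.5 library 2 (-0.23) or 3 (-0.25) and without E18.5 library 2 (-0.26) or 3 (-0.25). Erythroid markers summed to between 3162 and 3425 CPM in P2 cells, 503 and 772 CPM in E14.5 CD54+CD31- cells, 335 and 459 CPM in CD31+ cells, and 138 and 279 CPM at E18.5, and their part in the *Zfp36l2* levels of the other populations was not tested.

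The 2 relatives of *Zfp36l2*, which encode proteins that bind the same kind of message, were lowest in P2 cells and highest at E18.5, whereas the CD31+ fraction ranked above the E14.5 CD54+CD31- fraction for all 3 genes. *Zfp36l1* was at 29.0, 33.4, and 35.8 CPM in P2 cells, between 115 and 128 CPM in E14.5 CD54+CD31- cells, between 155 and 191 CPM in CD31+ cells, and between 219 and 241 CPM at E18.5. *Zfp36*, which encodes tristetraprolin, was at 3.93, 4.79, and 6.20 CPM in P2 cells, 29.7, 28.1, and 53.0 CPM in CD54+CD31- cells, 59.7, 50.7, and 163 CPM in CD31+ cells, and 351, 272, and 275 CPM at E18.5. P2 cells were 3.70-fold below CD54+CD31- cells in *Zfp36l1* (edgeR adjusted p = 1.61e-07) and 7.51-fold below them in *Zfp36* (edgeR adjusted p = 0.000224), and 5.49-fold and 18.5-fold below CD31+ cells. These directions were the same with the authors' factors and with DESeq2 size factors. With age *Zfp36* rose 9.26-fold (edgeR adjusted p = 0.000103) and *Zfp36l1* 2.16-fold (edgeR adjusted p = 0.000112). Lung and mesenchymal markers were higher at E18.5 as well, and their part in these rises was not tested. By their means the 4 populations were ranked alike by *Zfp36* and *Zfp36l1*, from P2 up to E18.5, although the CD31+ and CD54+CD31- libraries overlapped in *Zfp36*.

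**Figure D4:**
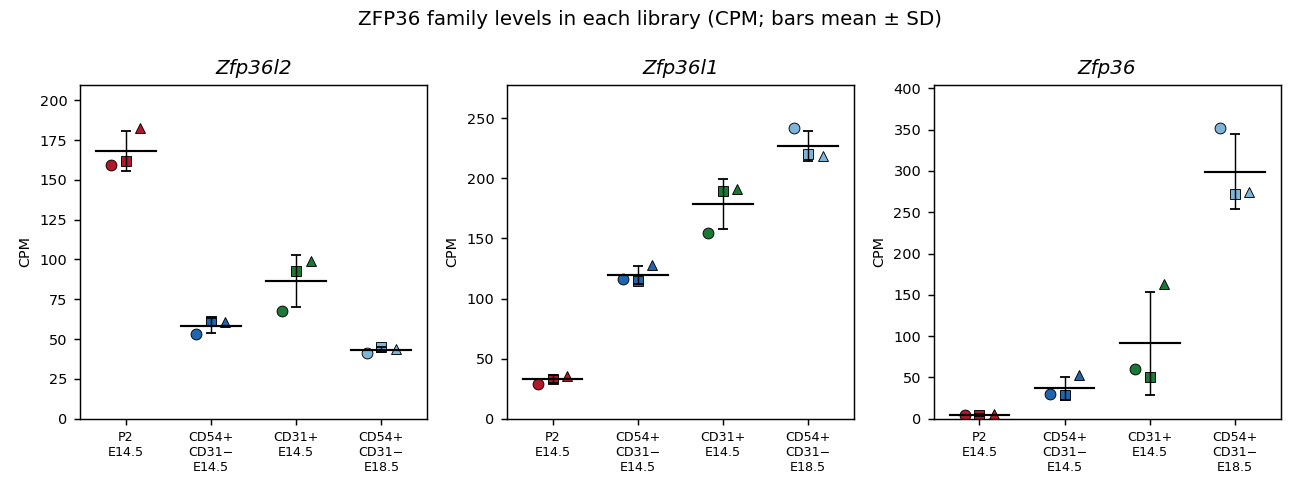
Levels of *Zfp36l2*, *Zfp36l1*, and *Zfp36* in each library (CPM, axes from 0), with the mean and SD of 3 libraries in each of the 4 populations. *Zfp36l2* is highest and its 2 relatives are lowest in P2 cells, and *Zfp36* spreads from 50.7 to 163 CPM among the CD31+ libraries.

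In the wider list of the family, its deadenylases, and related factors (15 genes, without *Zfp36l2*), 6 were higher and 7 lower in P2 than in CD54+CD31- cells (median log2 -0.11 beside -0.01), and with the authors' factors 4 higher and 8 lower. The higher included *Elavl1*, whose protein HuR binds and stabilises AU-rich messages (2.00-fold), *Parn*, a deadenylase (2.02-fold), and *Cnot3*, a subunit of the CCR4-NOT deadenylase (1.81-fold). The lower included *Tob1* (6.73-fold) and *Btg1* (3.81-fold), whose products recruit this complex and slow cell division. Against CD31+ cells 7 were higher and 5 lower (median 0.25 beside -0.13), a majority that turned to 4 higher and 6 lower (median -0.12) with the authors' factors. In CD31+ against CD54+CD31- cells 3 were higher and 3 lower (median 0.09 beside -0.03), and 5 higher and 2 lower with the authors' factors. With age 6 rose and 5 fell (median -0.04 beside 0.03), and with the authors' factors 7 rose and 1 fell. *Btg2*, a relative of *Btg1*, rose 11.2-fold with age, and the scaffold subunit *Cnot1* fell 1.82-fold.

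*Ppara* (ENSMUSG00000022383, chr15:85734983-85802819, plus strand) was a transcript of CD54+CD31- cells. The 3 P2 libraries had 49, 46, and 69 counts, or 1.13, 0.96, and 1.33 CPM, and the CD31+ libraries 2.59, 1.84, and 2.33 CPM. The E14.5 CD54+CD31- libraries had 82.9, 74.3, and 72.4 CPM. At E18.5 the libraries had 14.3, 70.4, and 89.7 CPM, so that library 1 lay far below the others. P2 cells were 67.9-fold below CD54+CD31- cells (log2 -6.09 ± 0.17, SE, edgeR adjusted p = 6.62e-10) and CD31+ cells 34.1-fold below them (log2 -5.09 ± 0.16, SE, edgeR adjusted p = 1.80e-09). P2 cells were also 1.99-fold below CD31+ cells (log2 -0.99 ± 0.17, SE, edgeR adjusted p = 0.000329). This call was not kept with all 12 libraries in one fit, where the difference was nearly as large and its error greater (-0.98 ± 0.54, SE, edgeR adjusted p = 0.128). Hepatoblast markers summed to between 700 and 708 CPM in P2 cells and between 856 and 959 CPM in CD31+ cells. Their part in these low *Ppara* levels was not tested. Between the 2 ages the groups overlapped and the difference was -0.22 ± 0.57 (SE, edgeR adjusted p = 0.742), with values between -0.68 and 0.23 when each library was left out. The *Ppara* level and the hepatoblast marker sum were both lowest in library 1 of the 3 E18.5 libraries, and the link was not tested.

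The other receptors of this family were not arranged like *Ppara*. *Ppard* was between 26.8 and 32.1 CPM in P2 cells and between 28.5 and 30.2 CPM in CD54+CD31- cells, a difference of 0.01 ± 0.11 on the log2 scale (SE, edgeR adjusted p = 0.943), and was 1.82-fold lower in P2 than in CD31+ cells. *Pparg* was at 0.16, 0.58, and 0.27 CPM in P2 cells and averaged 1.27 CPM in E14.5 CD54+CD31- cells, 10.5 in CD31+ cells, and 4.44 at E18.5. Its highest P2 library, library 2, was also the one with the most endothelial marker signal (423 CPM against 82.5 and 129), and without it the difference from CD54+CD31- cells went from -1.92 to -2.54 and that from CD31+ cells from -4.96 to -5.58 on the log2 scale. *Rxra*, which encodes the partner with which PPAR receptors bind DNA, was 2.65-fold lower in P2 than in CD54+CD31- cells (edgeR adjusted p = 4.73e-07). Coactivators went apart between P2 and CD54+CD31- cells. *Ppargc1a* averaged 0.71 and 56.7 CPM, and *Ppargc1b* averaged 36.4 and 5.97 CPM, 6.00-fold higher in P2 cells. In CD31+ cells *Ppargc1a* averaged 1.96 CPM and *Ppargc1b* 58.4 CPM, each above its P2 mean. Of the 7 receptors and coactivators 2 were higher and 4 lower in P2 than in CD54+CD31- cells (median log2 -1.40 beside -0.01), and 1 was higher and 6 lower than in CD31+ cells (median -0.86 beside -0.13). CD31+ cells had 3 higher and 2 lower than CD54+CD31- cells (median 0.87 beside -0.03). With age 3 of 6 rose and the other 3 were not called (median 0.41 beside 0.03), and 4 rose without E18.5 library 1.

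Genes known as PPARα targets, most of them enzymes of fatty acid oxidation and ketone formation, were lower in P2 than in CD54+CD31- cells for 15 of 17 tested (median log2 -2.44 beside -0.01), and the other 2, *Angptl4* (-0.04) and *Cpt1a* (-0.09), did not pass the test. *Creb3l3*, a hepatic transcription factor, averaged 1.60 and 185 CPM. With the authors' factors all 17 were lower than in CD54+CD31- cells. The hepatoblast marker sum moved with this list. Against CD31+ cells, in which these markers summed to between 856 and 959 CPM, 6 were higher and 7 lower (median -0.23 beside -0.13). This near-even split turned to 5 higher and 10 lower (median -0.60) with the authors' factors. *Ehhadh*, a peroxisomal enzyme, was 4.27-fold higher in P2 cells and *Slc25a20*, the carnitine carrier of mitochondria, 1.71-fold lower. CD31+ cells had 2 higher and 15 lower than CD54+CD31- cells, the 2 being *Pdk4* (3.68-fold) and *Cpt1a* (1.54-fold). With age 4 rose and 7 fell among 18, and 7 rose and 11 fell among 19 without E18.5 library 1. *Vnn1* rose 12.2-fold, and *Cpt2* fell 3.81-fold and *Plin2* 2.82-fold.

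Erythroid progenitor genes other than the 8 were taken as a list of transcription factors, receptors, and signalling genes of early erythroid cells. From these data the study lists *Kit*, *Epor*, *Myb*, *Gata1*, *Klf1*, *Lmo2*, and *Tal1* as higher in P2 than in CD324+ cells. Their direction against CD54+CD31- cells was thus known beforehand, and the list does not test what P2 cells are. Of 16 tested (*Lyl1*, nested in another gene, had 0 counts throughout) 12 were higher and 3 lower in P2 than in CD54+CD31- cells (median log2 2.06 beside -0.01), and 11 were higher and 5 lower than in CD31+ cells (median 1.41 beside -0.13). *Kit*, the receptor used in the sort, averaged 323 CPM against 11.2 CPM, *Myb* 278 against 12.2 CPM, and *Klf1* 397 CPM against 33.3 CPM in CD31+ cells. *Spi1*, *Cited2*, and *Smad5* were the 3 lower, with *Smad5*, a mediator of BMP signals, 2.62-fold below CD54+CD31- cells. CD31+ cells had 6 higher and 4 lower than CD54+CD31- cells, among the higher *Gata2* (36.7 against 0.86 CPM). With age 4 rose and 6 fell in CD54+CD31- cells, with *Klf1*, *Gata1*, and *Epor* 5.72-, 5.11-, and 4.99-fold lower, and these 3 genes belong to the erythroid markers whose sum also fell.

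The genes whose levels followed each of the 8 most closely over the 12 libraries were found by Pearson's r on log2(CPM + 1), as a description across libraries that share 4 populations. *Nr3c1* was followed by *Rab11fip1* (r = 0.979) and *Txnrd3* (0.966). *Zfp36l2* was followed by *Api5* (0.995), *Ndrg3* (0.995), and *Pot1a* (0.993), and *Ppara* by the liver genes *Fah* (0.999) and *Fgb* (0.997). *Fkbp5* was followed by *Tubb2a* (0.989), *Greb1l* (0.988), and *Plcb1* (0.983). *Tsc22d3* was followed by *Fbxo11* (0.995), *Sike1* (0.993), and *Wwc2* (0.992), and *Per1* by *Themis3*, *Slc4a5*, and *St14* (0.995, 0.994, and 0.994). *Themis3* averaged 0.048 CPM or less in the E14.5 populations and 0.80 CPM at E18.5, a low level throughout. *Slc4a5* averaged 1.81 CPM or less in the E14.5 populations and 122.6 CPM at E18.5, a contrast of the same kind as that of *Per1*. For *Hsd11b2* the best was *Klhl10* (0.881), with both genes near 1 CPM or less.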

How the data were processed

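The study sequenced ribosome-depleted total RNA of sorted cells (SMARTer Stranded Pico kit). The submitters' processing notes name cutadapt 1.11, STAR 2.5.0a, featureCounts 1.4.6-p3, R 3.5.1, and DESeq2, with build GRCm38. The strand setting of the counting is not given in the sources used here, and whether reads outside exons entered the counts was not tested. The authors deposited raw counts per gene beside a score, in which each library's counts are scaled by its own factor and rounded. Every test was run on the counts; the score served to read those factors.

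Tests were run in R 4.3.3 with edgeR 4.0.16 (TMM, filterByExpr, quasi-likelihood, Benjamini-Hochberg over all genes, adjusted p below 0.05) on 9 E14.5 or 6 CD54+CD31- libraries, after a check on simulated data. GENCODE vM21 gave coordinates and RefSeq the promoter windows. The 8 genes and the lists were chosen with earlier results of these data known. Named genes were the 8 in every library, up to 3 per list and direction with the largest called change and no overlap between libraries, and the 3 most alike genes; the receptors, ZFP36 relatives, and *H6pd*, *Fkbp4*, and *Mc2r* were given for every population and genes of the sort as ranges. A few genes that this rule names are not reported here. *Lamb3* and *G0s2* were chosen after their values were seen.

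Replicate numbers come from the labels. Libraries with the same number deviated together (correlations above 0.1) in each pair of CD31+ and CD54+CD31- E14.5 libraries (0.334, 0.26, and 0.122). In the other comparisons only the P2 and CD31+ libraries numbered 3 did so (0.336). No 2 libraries of a population were alike within sampling noise (lowest chi-square over its degrees of freedom 42.0). Alternatives were DESeq2 1.42.0, its size factors or the authors' factors in edgeR, other count filters, other sets of libraries, genes above 1% of a library left out, a replicate block, and each library left out in turn.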

Additional observations from a re-analysis of the deposited data

How the results depend on the processing

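The numbers of genes called, among the 8 genes and among all genes, stayed within 1.5 times the reported count under every alternative run. The number among the 8 ranged from 4 to 5 for P2 against CD54+CD31- cells, 4 to 6 against CD31+ cells, 4 to 5 for CD31+ against CD54+CD31- cells, and 3 to 5 with age. Of the single log2 fold changes recomputed, 450 kept their side of the threshold, 18 lost and 8 gained a call, and 0 called values changed sign. Of the 18, *Nr3c1* in P2 against CD54+CD31- cells made 6, *Zfp36l2* with age 11, and *Ppara* in P2 against CD31+ cells 1, each with its value or count above; the cause was not tested beyond the smaller number of libraries where 1 was left out. The calls gained were *Per1* in P2 against CD31+ cells with the authors' factors (-0.66) and with at least 10 counts in every library (-0.43), *Fkbp5* with age with all 12 libraries in one fit (-0.37), and those named above. With the replicate block, all genes called numbered 10910, 11460, 10326, and 10329 in the 4 comparisons. *Per1* in P2 against CD31+ cells was called (-0.28), and *Zfp36l2* with age was not (-0.24). Apart from *Per1* in CD31+ against CD54+CD31- cells, no other call among the 8 genes changed. The P2 and CD31+ libraries numbered 3 also deviated together (0.336). Whether libraries with the same number share a litter is not stated. Settings for the lists were added after the data were examined: without P2 library 2, whose endothelial markers summed to 423 CPM against 82.5 and 129 in the other P2 libraries, glucocorticoid-induced genes numbered 4 higher and 16 lower than in CD54+CD31- cells. Depth limits *Hsd11b2* and *Ppara* outside CD54+CD31- cells, and counting of nested genes removes *Hsd11b1*.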
